A study of Mus musculus with 10 samples.

Results

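The genes described here run the meiotic divisions of the egg: the cyclin B kinase and its regulators, the machinery of anaphase onset, the spindle checkpoint, cohesin with its protectors, and the kinases, kinetochore proteins and motors of the spindle. Of 31 such genes, chosen by name, 28 had a promoter window with CpG calls in every pool, 2 had a window in some pools only (Ccnb3 and Fbxo43), and Rad21, a cohesin subunit, had none. The genes account for 47 of the 49705 windows in the 3 tables together, and 45 of these 47 had values in every pool. A window was taken for a gene when its centre lay within 200 bp of the gene's start in the mouse genome build mm10.

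The groups were metaphase II (MII) oocytes of 11-month wild-type (WT) females (3 libraries), of 2-month Tet2 knockout (Tet2KO) females (3 libraries) and of 2-month WT females (4 libraries), all on a C57BL6/129 background. Tet2 encodes an enzyme that oxidises 5-methylcytosine; the labels give neither the allele nor its extent, and no detail of how many animals gave the oocytes. DNA was sequenced by a low-input bisulfite method, in which an unmethylated cytosine is read as thymine and a methylated or hydroxymethylated cytosine as cytosine. The series' design speaks of 10 oocytes a sample, while the extraction protocol speaks of a single oocyte. The libraries of a group were pooled in the tables, so each window has a single value per group: no test between groups was possible, no p-value is given, and intervals below cover counting error only, without any spread between animals or libraries.

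The oocyte waits at metaphase of the second meiotic division with its chromosomes on the spindle. CDK1 bound to cyclin B holds it there, while the anaphase-promoting complex, which would destroy cyclin B and securin, is kept inactive until fertilisation. Cohesin, loaded before birth in the female germ line, keeps sister chromatids together, and its loss with maternal age is a known source of aneuploid eggs. DNA methylation of the oocyte genome is laid down during growth, mostly over transcribed gene bodies, while CpG-rich promoters usually stay unmethylated.

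The tables held 30431118 CpG calls for 11-month WT, 8610762 for Tet2KO and 15046863 for 2-month WT, of which mitochondrial windows took 44.2%, 36.5% and 37.6% in the same order. Windows of the 28 genes held 53 to 947 calls in 11-month WT (median 282.5), 13 to 257 in Tet2KO (median 79.5) and 51 to 661 in 2-month WT (median 154.5). As a check of the cell type, 9 maternally methylated imprinted starts, Peg13, Mest, Snrpn and Kcnq1ot1 among them, had a median level of 96.1% in 11-month WT, 94.2% in Tet2KO and 96.1% in 2-month WT. The lowest of the 9 was Peg10, at 70.1%, 67.9% and 65.0% in the same order. The start of H19, methylated on the paternal allele, was at 1.61%, 2.50% and 4.21%. No RNA was measured, so marker transcripts of oocytes or cumulus cells could not be read.

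The promoters themselves were CpG-rich in most cases. RefSeq promoter sequences (assembly GRCm38.p6, which mm10 represents) reach from 250 bases before to 50 bases after a start, and 26 of the 31 genes matched one; Aurkb, Fbxo43, Incenp, Rad21 and Tpx2 did not. The 26 promoters held a median of 21.5 CpG dinucleotides in 300 bases (range 5 to 34), against 7.0 over all 32851 promoters of the table. Those of Bub1b and Cdc20 are shown because their levels differed most between pools, that of Ccnb3 because it was the most methylated, that of Ccnb2 because it had no methylated call in 2-month WT, and that of Aurka as a further example of the motif described below. Each is written 5′ to 3′ along the gene's strand, with CpG dinucleotides in capitals.
Bub1b: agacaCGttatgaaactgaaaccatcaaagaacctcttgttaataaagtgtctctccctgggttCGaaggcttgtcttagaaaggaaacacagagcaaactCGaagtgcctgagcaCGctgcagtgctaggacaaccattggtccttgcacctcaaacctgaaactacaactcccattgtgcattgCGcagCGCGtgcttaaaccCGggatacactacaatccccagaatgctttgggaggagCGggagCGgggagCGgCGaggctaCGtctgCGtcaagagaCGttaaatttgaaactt
Cdc20: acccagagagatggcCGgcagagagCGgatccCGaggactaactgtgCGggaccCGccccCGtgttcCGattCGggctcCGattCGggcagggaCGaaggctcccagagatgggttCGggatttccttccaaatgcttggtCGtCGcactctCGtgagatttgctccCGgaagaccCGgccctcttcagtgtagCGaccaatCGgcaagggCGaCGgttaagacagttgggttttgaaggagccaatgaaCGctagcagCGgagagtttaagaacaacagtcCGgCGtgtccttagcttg
Ccnb3: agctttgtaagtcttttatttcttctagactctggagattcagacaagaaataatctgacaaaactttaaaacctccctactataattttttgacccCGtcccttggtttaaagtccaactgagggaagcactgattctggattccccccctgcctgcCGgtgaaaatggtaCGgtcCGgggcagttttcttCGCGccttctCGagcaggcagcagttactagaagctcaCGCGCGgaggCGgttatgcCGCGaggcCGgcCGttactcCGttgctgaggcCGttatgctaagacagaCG
Ccnb2: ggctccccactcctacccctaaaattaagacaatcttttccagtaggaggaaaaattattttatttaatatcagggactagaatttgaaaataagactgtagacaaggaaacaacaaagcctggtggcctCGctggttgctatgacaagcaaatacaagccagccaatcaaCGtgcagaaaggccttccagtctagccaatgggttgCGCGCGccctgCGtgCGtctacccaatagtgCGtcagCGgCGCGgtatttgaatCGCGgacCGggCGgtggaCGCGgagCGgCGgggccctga
Aurka: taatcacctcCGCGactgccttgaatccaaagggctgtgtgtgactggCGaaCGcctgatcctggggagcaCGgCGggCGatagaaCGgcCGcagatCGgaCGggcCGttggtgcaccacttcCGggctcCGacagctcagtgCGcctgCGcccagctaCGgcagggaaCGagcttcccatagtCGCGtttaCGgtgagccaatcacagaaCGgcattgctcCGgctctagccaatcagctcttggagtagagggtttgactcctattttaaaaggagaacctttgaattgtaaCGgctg

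Bub1b lies on the plus strand (chr2:118597961-118598260, 15 CpG), Cdc20 on the minus strand (chr4:118437294-118437593, 25 CpG), Ccnb3 on the minus strand (chrX:7041570-7041869, 18 CpG), Ccnb2 on the minus strand (chr9:70421505-70421804, 19 CpG) and Aurka on the minus strand (chr2:172370521-172370820, 24 CpG). In the Ccnb3 and Ccnb2 promoters nearly all CpG dinucleotides sit in the second part of the 300 bases, as the capitals show, yet these 2 genes were at opposite ends of methylation in 2-month WT. At the CpG-poor end were Wee2 and Aurkc, both used mainly in the germ line, with 5 and 6 CpG dinucleotides.

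The cell cycle genes homology region, TTTGAA, is a promoter element known from genes expressed late in the cell cycle, and CCAAT boxes are a frequent companion of it. On either strand, TTTGAA was found in 12 of the 26 promoters (46.2%), against 17.9% of all promoters of the same length. CCAAT was found in 20 of the 26 (76.9%), against 37.4% of all promoters, and at least 2 matches to it in 11 of the 26 (42.3%), against 11.7%. Matches to the motifs can share bases at their ends. In Cdc20 TTTGAA begins 18 bases before the start, at -18, and in Bub1b 40 bases after it. In Ccnb2 it begins at -167 and again at 4, in Cdk1 at -71 and -15, and in Espl1 at -27. In Ccnb3 neither motif was found in these 300 bases. A match describes the letters of the sequence only.

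In each pool taken by itself, most of the 28 genes had promoters with little methylation. The level is the percentage of all CpG calls in a window that were methylated. It was under 5% in 25 of the 28 genes in 11-month WT, 22 in Tet2KO and 23 in 2-month WT. These are 89.3%, 78.6% and 82.1%, against 64.2%, 65.2% and 58.9% of the 40537 nuclear windows with values in every pool. Of all genes with 20 to 29 CpG dinucleotides (14 of the 28 among them), 79.8%, 80.5% and 71.9% were under 5%. With 10 to 19 (7 of the 28 among them), 73.4%, 72.4% and 65.3% were. Of 91 other genes of the same pathways, described below, 79.1%, 83.5% and 72.5% were. In Tet2KO the 28 genes were below the 20 to 29 class and the other pathway genes. In both WT pools they were above all of these shares. Median levels of the 28 genes were 2.09% in 11-month WT, 1.54% in Tet2KO and 1.79% in 2-month WT, and those of all windows were 2.72%, 2.17% and 3.23% in the same order. Over the calls of all 28 windows together, the level was 2.45% in 11-month WT (9010 calls, Wilson 95% interval 2.15 to 2.79), 2.49% in Tet2KO (2889 calls, 1.98 to 3.13) and 3.23% in 2-month WT (5054 calls, 2.77 to 3.75). Of the 163 methylated calls of 2-month WT, Cdc20 gave 28 and Bub1b 23. In 11-month WT these genes gave 14 and 2 of 221, and in Tet2KO 4 and 2 of 72. None of the 28 exceeded 20% in any pool, where the highest levels were 8.80% at Espl1 in 11-month WT, 16.9% at Espl1 in Tet2KO and 19.8% at Bub1b in 2-month WT. By the deposited fraction, which averages over CpG positions, Espl1 in Tet2KO (26.7%) and Cdc20 in 2-month WT (29.5%) did exceed it. These 28 windows are 1 per gene, the deepest, while the background counts every window.

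**Figure D1:**
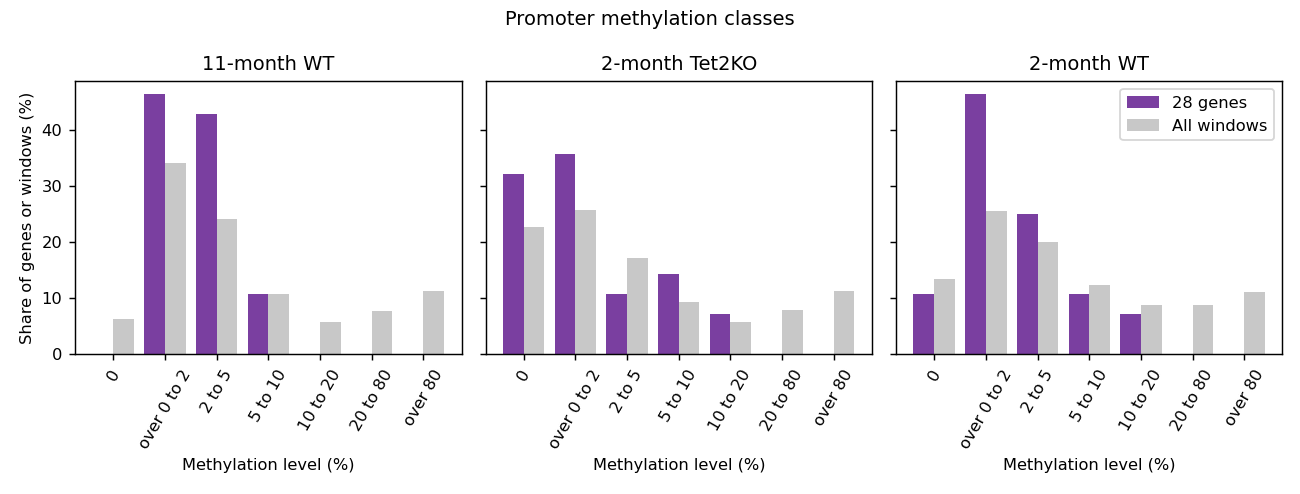
Share of the 28 genes (purple) and of all 40537 shared nuclear windows (grey) in classes of promoter methylation, in percent of genes or windows, for each pool; class 0 holds windows with no methylated call. No gene of the 28 falls in the classes above 20%, where over 11% of all windows exceed 80%.

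The exception was Ccnb3, a B-type cyclin of meiosis whose loss in mice arrests oocytes before anaphase of the first division. Its window (X chromosome, 7040620 to 7042619) was at 100% in 11-month WT (23 calls, Wilson 95% interval 85.7 to 100) and at 93.8% in 2-month WT (16 calls, 71.7 to 98.9), with no Tet2KO value used here. Both WT pools were almost fully methylated at this start. The difference was 6.25 points (percentage points, 11-month minus 2-month WT; Newcombe 95% interval -8.96 to 28.3), too wide to tell the pools apart. The calls fell on 22 and 9 CpG positions. With 18 CpG dinucleotides, Ccnb3 belonged to a class of promoters (10 to 19 CpG) in which 4.00% of 3723 genes in 11-month WT and 4.11% in 2-month WT were above 80%. Fbxo43, also called Emi2, which holds the anaphase-promoting complex inactive in the MII egg, had 0 of 10 methylated calls in 11-month WT, which allows a level of up to 30%. The window was matched by position to an end of the gene whose strand was not in the tables used here, and the files do not pair it with the gene by name, so the value may belong to the far end of Fbxo43 or to another RNA.

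**Figure D2:**
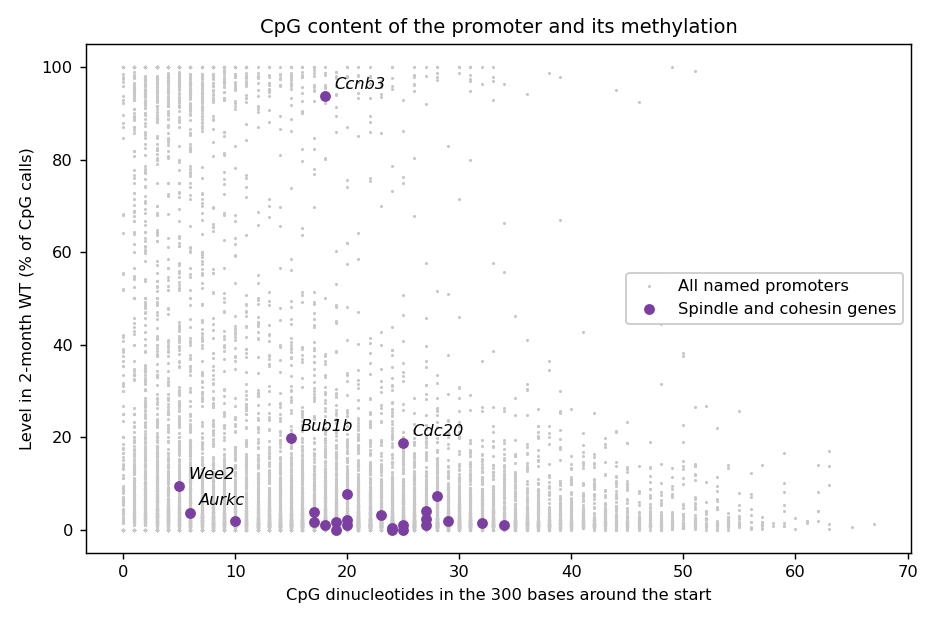
CpG dinucleotides in the 300 bases around the start (horizontal axis) and promoter methylation in 2-month WT in percent of CpG calls (vertical axis), for 14704 genes with a promoter sequence (grey points) and the spindle and cohesin genes among them, with Ccnb3 added from its WT values (purple). Ccnb3 stands at 93.8% with 18 CpG dinucleotides, while Bub1b and Cdc20 lie just under 20%.

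Across all named promoters, levels were lower where CpG content was higher. Genes with 0 to 4 CpG dinucleotides in 300 bases had median levels of 6.06% in 11-month WT, 5.88% in Tet2KO and 5.92% in 2-month WT, and genes with 30 or more had 1.75%, 1.35% and 1.96%. Of the genes with 20 to 29, the class that holds 14 of the spindle and cohesin genes, 1.5% exceeded 80% in 11-month WT, 1.42% in Tet2KO and 1.40% in 2-month WT.

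Maternal age is addressed by setting the 11-month WT pool against the 2-month WT pool. At least 20 points separated the pools at 0 of the 28 genes in either direction. Of all windows, 2.78% were higher and 2.76% lower by that much. The lower count was fixed beforehand, because none of the 28 exceeded 19.8% in 2-month WT and so none could fall by 20 points. All windows include 8.79% at 20 to 80% and 11.0% over 80% in that pool, which had room to fall. At 10 points, 0 genes counted as higher and 2 as lower, Cdc20 and Bub1b, where 6.36% and 7.74% of all windows were. Only these 2 of the 28 were at 10% or more in 2-month WT, so only they could be lower by that much. The interval of the difference excluded 0 at 3 genes that were higher (Ccnb2, Aurka and Tpx2) and at 4 that were lower (Cdc20, Bub1b, Sgo1 and Kif11). That is 10.7% and 14.3% of the genes, near the background of 10.0% and 16.3% of all windows. By sign alone, 19 of the 28 were higher and 9 lower, where 48.2% and 47.7% of all windows were. The median difference was 0.44 points, against 0 over all windows, and the median size of a difference was 0.97 points, against 2.13. At 24 of the 28 genes the interval lay wholly within 10 points of 0, so that a larger difference between these pools was outside counting error there; 57.2% of all windows were as tightly bounded.

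The loss of Tet2 is addressed by setting Tet2KO against WT oocytes of the same age, 2 months. This comparison shares the 2-month WT pool with the age comparison, so the values of these comparisons are not independent. In Tet2KO 0 of the 28 genes were at least 20 points higher or lower, where 3.29% and 3.22% of all windows were. Here too the lower count could only be 0, since none of the 28 exceeded 19.8% in 2-month WT. By 10 points or more, Sgo2a was higher and Cdc20 and Bub1b were lower, where 7.21% and 8.97% of all windows were. Cdc20 and Bub1b were again the only genes of the 28 that could be lower by that much. The interval excluded 0 at 2 genes that were higher (Sgo2a and Cenpa) and at 3 that were lower (Cdc20, Bub1b and Kif11), which is 7.14% and 10.7% of the genes, against 7.58% and 13.2% of all windows. By sign alone, 13 were higher, 14 lower and 1 equal, where 38.6%, 52.6% and 8.75% of all windows were. The median difference was -0.01 points, against -0.24 over all windows, and the median size 1.38 points, against 2.33. The interval lay wholly within 10 points of 0 at 17 genes and within 20 points at 24, with Tet2KO the shallowest pool; 47.6% and 73.2% of all windows were as tightly bounded. In 9 of the 28 genes Tet2KO had no methylated call, against 0 in 11-month WT and 3 in 2-month WT. That is 32.1% of the genes in Tet2KO, 0% in 11-month WT and 10.7% in 2-month WT, where 22.7%, 6.24% and 13.4% of all windows had none.

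**Figure D3:**
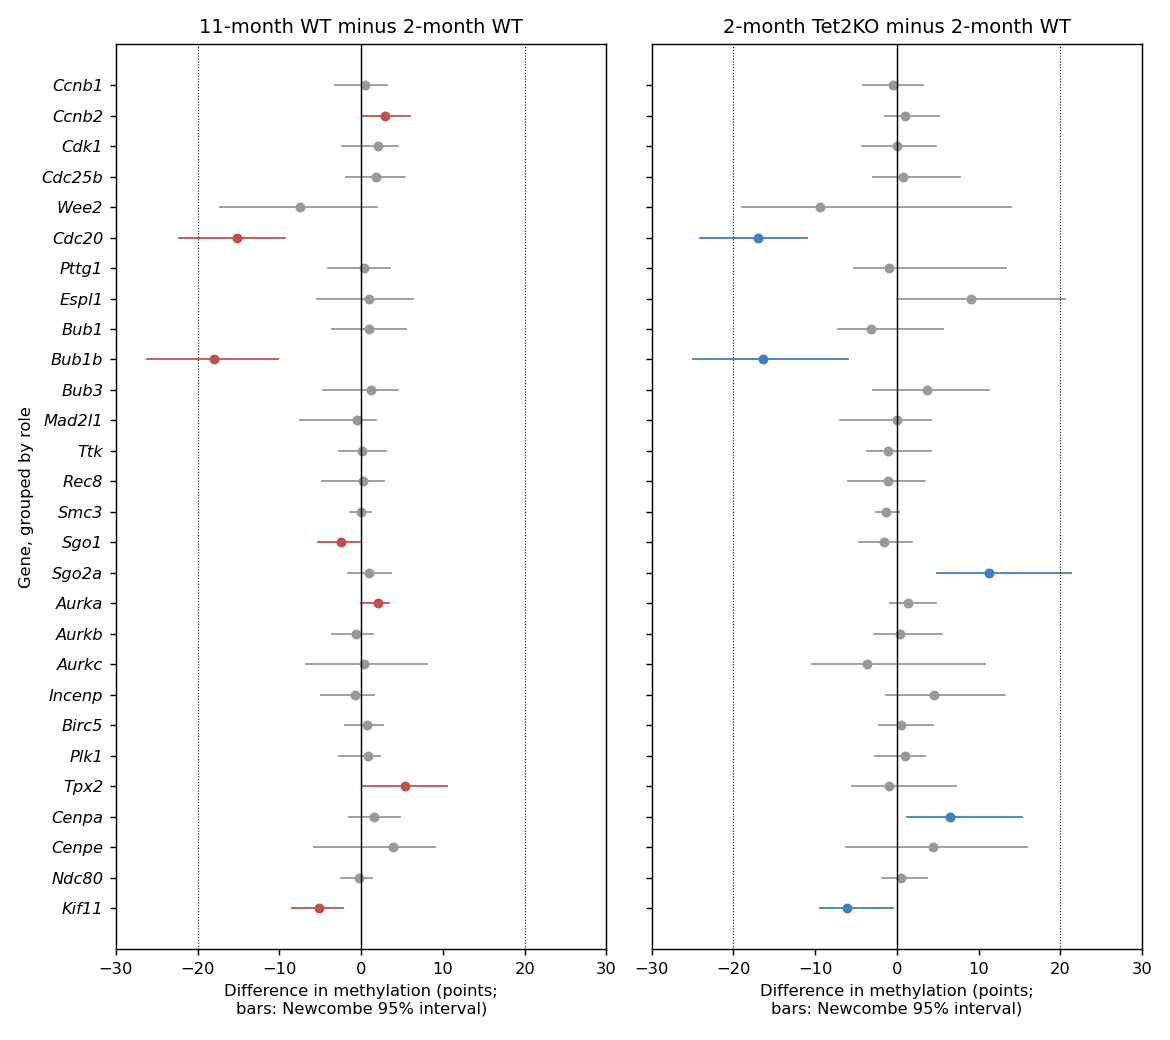
Difference in promoter methylation in percentage points for 28 genes grouped by role, 11-month minus 2-month WT (left) and Tet2KO minus 2-month WT (right), with Newcombe 95% intervals for counting error; coloured points have an interval that excludes 0 and dotted lines mark 20 points. Cdc20 and Bub1b stand apart on the lower side in both panels, and Sgo2a, at 11.3 points, is the furthest right in Tet2KO.

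At anaphase onset, CDC20 activates the anaphase-promoting complex, securin (Pttg1) is destroyed, and separase (Espl1) cuts cohesin. The Cdc20 window (chromosome 4, 118436353 to 118438352) was at 3.47% (404 calls) in 11-month WT, 1.65% (242 calls) in Tet2KO and 18.7% (150 calls) in 2-month WT. The Wilson interval of 2-month WT, 13.2 to 25.7, overlapped neither that of 11-month WT (2.08 to 5.73) nor that of Tet2KO (0.645 to 4.17). The difference was -15.2 points for 11-month minus 2-month WT (Newcombe interval -22.3 to -9.32) and -17.0 points for Tet2KO minus 2-month WT (-24.1 to -11.0). By the deposited fraction Cdc20 was at 3.92% in 11-month WT, 1.12% in Tet2KO and 29.5% in 2-month WT, and the differences were -25.6 and -28.4 points. Depth differed beside the level: each covered position had 4.75, 3.41 and 2.34 calls in the same order, and its part in the result was not tested. Espl1 was at 8.80% (250 calls) in 11-month WT, 16.9% (65 calls) in Tet2KO and 7.80% (141 calls) in 2-month WT, and by the deposited fraction at 17.3%, 26.7% and 14.2% in the same order. Its Tet2KO difference was 9.12 points (interval -0.02 to 20.5, which just includes 0). Pttg1 was at 1.25% in 11-month WT, 0% (23 calls) in Tet2KO, which allows up to 13.0%, and 0.96% in 2-month WT.

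The spindle checkpoint holds back CDC20 until every kinetochore is attached to the spindle. Bub1b encodes BUBR1, a subunit of the inhibitor that binds CDC20, and its window (chromosome 2, 118597211 to 118599210) was at 1.85% (108 calls) in 11-month WT, 3.45% (58 calls) in Tet2KO and 19.8% (116 calls) in 2-month WT. As with Cdc20, the interval of 2-month WT (13.6 to 28) overlapped neither of the others (0.51 to 6.50 in 11-month WT and 0.95 to 11.7 in Tet2KO). The difference was -18.0 points for age (interval -26.3 to -10.2) and -16.4 points for Tet2KO (-24.9 to -6.01). Here the calls covered 37, 40 and 40 positions in 11-month WT, Tet2KO and 2-month WT, and by the deposited fraction the differences were -14.2 and -13.5 points. The other checkpoint genes were low throughout. Bub1, a kinase that recruits checkpoint proteins to the kinetochore, was at 4.09% in 11-month WT, 0% (41 calls) in Tet2KO and 3.14% in 2-month WT. Bub3, the partner of BUB1 and BUBR1, was at 3.55%, 6.02% and 2.30% in the same order. Mad2l1, which encodes MAD2, was at 1.03%, 1.56% and 1.59%. Ttk, the kinase that starts checkpoint signalling, was at 1.12%, 0% (70 calls) and 1.03%. No interval of a difference excluded 0 at these 4 genes.

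**Figure D4:**
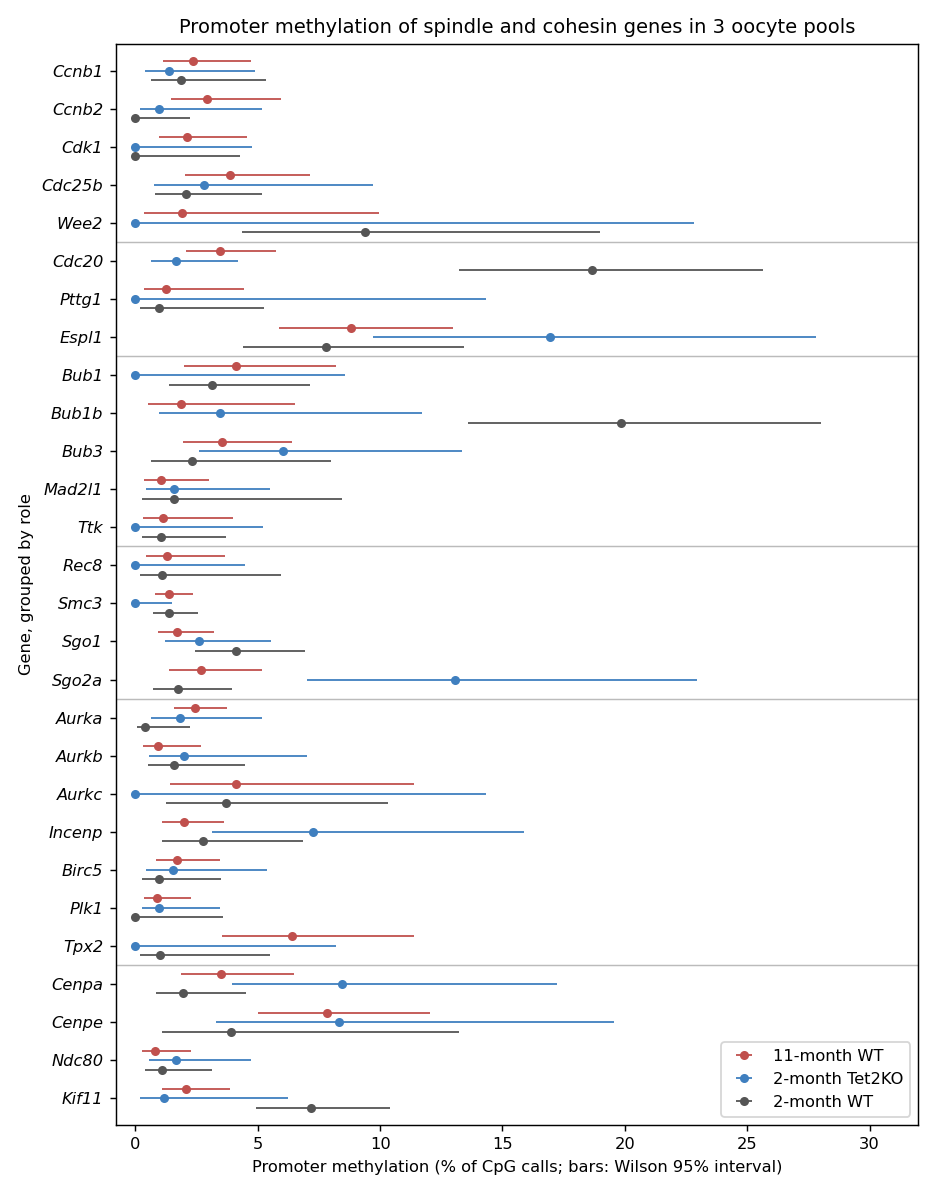
Promoter methylation in percent of CpG calls for 28 genes in 11-month WT (red), Tet2KO (blue) and 2-month WT (grey), with Wilson 95% intervals for counting error; lines separate the roles. Most genes lie under 5% in all 3 pools, Cdc20 and Bub1b stand at 18.7% and 19.8% in 2-month WT, and Espl1 and Sgo2a are highest in Tet2KO.

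Cyclin B and CDK1 form the kinase that acts when the oocyte resumes meiosis and that holds the MII arrest. Ccnb1, the main B-type cyclin, was at 2.33% (300 calls) in 11-month WT, 1.38% (145 calls) in Tet2KO and 1.86% (161 calls) in 2-month WT, so its pools did not differ beyond counting error. Ccnb2 was at 2.94% (238 calls) in 11-month WT, 0.94% (106 calls) in Tet2KO and 0 of 170 in 2-month WT, a count that allows up to 1.76%. Its age difference was 2.94 points (interval 0.27 to 5.95). Cdk1, the catalytic subunit, was at 2.12% (283 calls) in 11-month WT, 0 of 77 in Tet2KO and 0 of 86 in 2-month WT, and the zero counts allow up to 3.90% and 3.49%. Cdc25b, the phosphatase that activates CDK1 when the oocyte resumes meiosis, was at 3.85%, 2.82% and 2.06% in 11-month WT, Tet2KO and 2-month WT. Wee2, the oocyte kinase that inhibits CDK1, was at 1.89% (53 calls), 0 of 13 and 9.38% (64 calls) in the same order. The 13 calls allow up to 23.1% in Tet2KO, and both Wee2 intervals include 0, -17.2 to 2.00 for age and -19.0 to 14.0 for Tet2KO.

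Cohesin rings hold sister chromatids together, and shugoshins protect them at the centromere through the first division. Rec8, the meiotic subunit that separase cuts, was at 1.27% (236 calls) in 11-month WT, 0 of 82 in Tet2KO and 1.10% (91 calls) in 2-month WT. Smc3, a core ring subunit, had the deepest window of the set, at 1.37% (947 calls), 0 of 257 and 1.36% (661 calls) in the same order. Its age difference was 0.01 points (interval -1.32 to 1.17), the tightest bound here, and its Tet2KO difference was -1.36 points (-2.57 to 0.25). Sgo1, a shugoshin, was at 1.71% (525 calls), 2.60% (231 calls) and 4.13% (315 calls), and its age difference was -2.41 points (interval -5.33 to -0.14). Sgo2a, the shugoshin that protects REC8 in mouse oocytes, was at 2.67% (300 calls) in 11-month WT, 13.0% (69 calls) in Tet2KO and 1.72% (291 calls) in 2-month WT (chromosome 1, 57994971 to 57996970). Its Tet2KO difference was 11.3 points (interval 4.90 to 21.3), from 9 methylated calls. The deposited fraction of Sgo2a gave 5.81% for Tet2KO and 3.10% for 2-month WT, 2.72 points apart, so the size of this difference rests on how calls are weighted over positions.

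Among the kinases and the chromosomal passenger complex, all levels stayed under 8%. Aurka, the spindle pole kinase, was at 2.43% (823 calls) in 11-month WT, 1.81% (166 calls) in Tet2KO and 0.40% (250 calls) in 2-month WT, with an age difference of 2.03 points (interval 0.01 to 3.36). The Aurka window also holds the start of Cstf1, a subunit of the mRNA cleavage stimulation factor, on the opposite strand, 468 bp from its centre. Tpx2, which targets Aurora A to spindle microtubules, was at 6.41% (156 calls), 0 of 43 and 1.01% (99 calls) in 11-month WT, Tet2KO and 2-month WT. Its age difference of 5.40 points (0.06 to 10.5) was 1.83 points by the deposited fraction. Aurkb, the kinase of the passenger complex, was at 0.93%, 2.00% and 1.55% in the same order. Aurkc, its paralog in germ cells, was at 4.11% (73 calls), 0 of 23 and 3.70% (81 calls). By the deposited fraction Aurkc was at 3.02% in 11-month WT, 0% in Tet2KO and 12.5% in 2-month WT. The age difference of Aurkc thus turned from 0.41 points by level to -9.48 by the deposited fraction. Its Tet2KO difference was -3.70 points by level and -12.5 by the deposited fraction. Incenp, the scaffold of the complex, was at 1.99%, 7.25% and 2.74%, and its Tet2KO difference was 4.51 points (interval -1.29 to 13.3). Birc5, which encodes survivin, was at 1.70%, 1.52% and 0.98%. Plk1, a kinase needed for spindle assembly, was at 0.88%, 0.97% and 0 of 103 calls. Summed over the 7 genes, the level was 2.08% in 11-month WT (1.61 to 2.68), 1.89% in Tet2KO (1.13 to 3.15) and 1.30% in 2-month WT (0.78 to 2.17), with overlapping intervals.

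At the centromere and on the spindle, Kif11 and Cenpa differed. Kif11, the kinesin that pushes spindle poles apart, was at 2.05% (439 calls) in 11-month WT, 1.15% (87 calls) in Tet2KO and 7.18% (348 calls) in 2-month WT (chromosome 19, 37375403 to 37377402). Its differences were -5.13 points for age (-8.48 to -2.24) and -6.03 points for Tet2KO (-9.38 to -0.47), and -4.83 and -7.04 points by the deposited fraction. Cenpa, the histone H3 variant that marks centromeres, was at 3.49% (258 calls), 8.45% (71 calls) and 1.96% (255 calls) in 11-month WT, Tet2KO and 2-month WT, and its Tet2KO difference was 6.49 points (1.30 to 15.4). Cenpe, a kinesin of the kinetochore, was at 7.83% (230 calls), 8.33% (48 calls) and 3.92% (51 calls) in the same order, and both of its intervals include 0. Ndc80, which couples kinetochores to microtubules, was at 0.78%, 1.65% and 1.08%.

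Within a gene, the choice of window mattered little: 13 of the 28 genes had several windows, and the levels of windows of the same gene in the same pool lay within 1.19 points of each other. These windows overlap and share calls. Of the 28 genes, 11-month WT was strictly the highest pool at 13 and strictly the lowest at 6. For Tet2KO these counts were 9 and 11, and for 2-month WT 6 and 10. Over all windows, 32.9% were highest and 23.3% lowest in 11-month WT, 25.8% and 38.7% in Tet2KO, and 36.4% and 27.5% in 2-month WT.

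Other genes of the same pathways were read from a list of 98, of which 91 had a window in every pool. With age, 0 of the 91 were higher by 20 points or more and 1 lower. In Tet2KO 0 were higher and 0 lower. Only Anapc2, Pmf1 and Tubg1 were above 20% in 2-month WT and could be lower by that much. The interval excluded 0 at 7 genes higher and 23 lower with age, and at 6 higher and 17 lower in Tet2KO. The lower genes made up 25.3% and 18.7% of the list, where 16.3% and 13.2% of all windows were lower in this sense. The higher genes made up 7.69% and 6.59%, where 10.0% and 7.58% of all windows were higher. Deeper windows have narrower intervals, and the 91 windows held a median of 390 calls in 11-month WT, 131 in Tet2KO and 223 in 2-month WT. Over all windows the medians were 245, 79 and 131. The part of depth in these shares was not tested. Many windows of the list also hold the start of another gene, so the shares cannot be assigned to the listed genes alone. Among them are Mad1l1, Cenpk, Cenpt and Mis18a, lower with age in this sense, and Nuf2 and Cdca8, higher. The shares by complex below carry the same limits. The gene past 20 points was Anapc2, which encodes the cullin subunit of the anaphase-promoting complex, at 6.01% (849 calls) in 11-month WT, 36.3% (113 calls) in Tet2KO and 26.3% (228 calls) in 2-month WT. Its age difference was -20.3 points (-26.5 to -14.7), and -6.14 by the deposited fraction. By level, the Tet2KO difference of Anapc2, 9.97 points (-0.30 to 20.6), was the highest of the list, but by the deposited fraction it was 3.59 points, below Haus1 (7.48) and Knl1 (6.25) among others. The lowest by level was that of Tubg1, the gamma-tubulin that nucleates microtubules, at 5.09% (609 calls) in 11-month WT, 2.48% (202 calls) in Tet2KO and 22.4% (322 calls) in 2-month WT. For Tubg1 the difference was -17.3 points with age (-22.4 to -12.6) and -19.9 points in Tet2KO (-24.9 to -14.6), or -11.5 and -16.4 points by the deposited fraction. Its window also holds the start of Retreg3, 2 bp from the centre, against 61 bp for the Tubg1 end used, so the values cannot be assigned to Tubg1 alone. Zwint, a kinetochore protein, had the highest age difference by level, 17.6 points (9.03 to 25.9), with 28.4% (162 calls) in 11-month WT and 10.8% (166 calls) in 2-month WT, and was 1.47 points by the deposited fraction.

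By complex, the summed level of the 16 measured genes of the anaphase-promoting complex was 4.40% in 11-month WT (4.02 to 4.82), 4.5% in Tet2KO (3.78 to 5.35) and 7.09% in 2-month WT (6.38 to 7.87). These intervals leave out the spread between genes, and single windows weigh heavily in the sums. Anapc11 gave 179 of 444 methylated calls in 11-month WT, 17 of 121 in Tet2KO and 106 of 325 in 2-month WT. Anapc2 gave 51, 41 and 60 of them in the same order. In 5 of the 16 (31.2%) the interval of the age difference lay below 0 and in 0 above it, where 16.3% and 10.0% of all windows did. Besides Anapc2 these were Anapc1, Anapc5, Anapc11 and Cdc26. By the deposited fraction the direction of Anapc11 turned, to 1.27 points against -6.85 by level. Its window also holds the start of Alyref, 0 bp from the centre, against 56 bp for Anapc11. The age difference of Cdc26 was -14.2 points by level and -6.70 by the deposited fraction, and that of Anapc1 -2.67 and -1.24. Over the 16 genes the median age difference was -0.95 points by level and 0.36 by the deposited fraction. The 12 further cohesin genes stood at 2.61% in 11-month WT, 1.61% in Tet2KO and 3.45% in 2-month WT. With age, Stag2, Mau2, Wapl and Pds5b (33.3% of the 12) were lower in this sense and Pds5a (8.33%) was higher, where 16.3% and 10.0% of all windows were. In Tet2KO, Stag2, Mau2, Wapl and Cdca5 (33.3%) were lower and 0 higher, where 13.2% and 7.58% of all windows were. The Tet2KO difference of Cdca5 was -10.8 points by level and -4.34 by the deposited fraction, and that of Stag2 was -3.17 and -7.08. The Mau2, Wapl and Cdca5 windows also hold the start of another gene. The 28 further checkpoint and kinetochore genes stood at 4.06%, 3.32% and 5.60% in 11-month WT, Tet2KO and 2-month WT, and the 20 spindle genes at 2.03%, 1.80% and 3.67%. The 15 genes of the CDK1 and cytostatic factor group were at 1.65%, 1.63% and 2.50% in the same order.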

How the data were processed

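The authors deposited 1 table per group, with 1 line per promoter window; the labels name the same table for every library of a group, 10 libraries in 3 groups, so its values are pooled. The submitters' processing notes name Trimmomatic, Bismark (version 12.5 as given) and the build mm10; for any further step no source used here gives detail. The tables have no header, so what each column holds was read from its values. The deposited counts, whole numbers, were taken as methylated, unmethylated and all CpG calls per window of 2000 bp, and covered CpG positions; methylated and unmethylated calls add up to all calls in 100% of complete lines. The deposited fraction was taken as the mean methylated share of the covered positions, since it equals the level where each position has 1 call. No listed window has fewer than 10 calls or 5 positions. For 2-month WT the table ends in a broken line on X, beyond the Ccnb3 window.

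From these, the level (100 times methylated over all calls), Wilson 95% and Newcombe 95% intervals were computed with Python 3.11.15, pandas 2.3.3 and numpy 2.4.6, after a check on simulated data. An upper limit for a count of 0 is 3 counts of the total. Calls from PCR copies or the same read are not independent, so intervals and limits cover counting error only. The background is the 40537 nuclear windows with values in all 3 pools. Gene starts came from RefSeq (GRCm38.p6), by strand where a promoter sequence gives it, otherwise from either end of the gene. For each gene the window with the most calls in its shallowest pool was used. All 31 genes are described; of the other pathway genes, those past 20 points and the highest and lowest differences are named, and others where a count lists them, chosen after their values were seen. The genes and lists were chosen with earlier results of these data known.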

Additional observations from a re-analysis of the deposited data

How the results depend on the processing

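The counts of genes 20 points or more apart (0 in each direction of both comparisons) were 0 at 30 points, with at least 50 calls in every pool (22 genes), with the mean over a gene's windows, with window centres within 50 bp of the start (25 genes) and without windows of piled-up calls (over 3 times the median calls per position; none of the 28 genes was left out). The lower counts by level could not differ from 0 in these settings, because none of the 28 exceeded 19.8% in 2-month WT. At 10 points, 0 genes were higher and 2 lower with age, and 1 was higher and 2 lower in Tet2KO. Those 2 genes, Cdc20 and Bub1b, were the only ones that could be lower by 10 points. By the deposited fraction, 1 gene (Cdc20) was lower by 20 points or more with age and 1 (Cdc20) in Tet2KO, and 0 were higher; in the cases given above, single differences moved by over 1.5 times. The median difference with age, 0.44 points, ranged over these settings from 0.32 to 0.73. In Tet2KO the median was -0.01 points and ranged from -0.47 (within 50 bp) to 0.49 (at least 50 calls), so its sign is not settled. No paired analysis was possible because the tables hold pooled values per group, and for the same reason no library could be left out. Depth limits Wee2, Pttg1 and Aurkc most, with 13, 23 and 23 calls in Tet2KO.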

Other observations

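Some pathway genes outside the 31 carried intermediate promoter methylation. They were singled out after their values were seen, as genes at a level of 10% or more in at least 2 pools: 6 of the 91 other pathway genes and 0 of the 28, where 24.4% of all windows meet this. The list depends on how calls are weighted: by the deposited fraction, an alternative chosen after seeing the data, 8 of the 91 and 1 of the 28 (Espl1) meet it, and 26.1% of all windows. Of the 6 genes, 5 also meet it by the deposited fraction, without Cdca5, while Ensa, Anapc4 and Trip13 meet it by the deposited fraction alone. Pmf1, a kinetochore protein of the MIS12 complex, was at 10% or more in all 3 pools, at 10.7% (326 calls) in 11-month WT, 30.3% (76 calls) in Tet2KO and 23.7% (152 calls) in 2-month WT. Cdc26, a subunit of the anaphase-promoting complex, was at 4.09% (269 calls), 24.7% (81 calls) and 18.3% (164 calls) in the same order. Its window also holds the start of Prpf4, a splicing factor, 13 bp from the centre, against 171 bp for Cdc26. Anapc2, described above, had the same order of pools. Kif20a, a kinesin of cytokinesis, was at 17.6%, 9.26% and 18.5%, Cdca5, which encodes the cohesin protector sororin, at 10.9%, 3.09% and 13.9%, and Zwint at 28.4%, 9.72% and 10.8%. By the deposited fraction Cdca5 was at 12.2%, 5.35% and 9.69%, and Trip13, which disassembles checkpoint complexes, at 15.3%, 11.4% and 16.5%. The Cdca5 window also holds the start of Zfpl1, 32 bp from its centre against 154 bp for Cdca5. The Trip13 window also holds the start of Brd9, 26 bp from its centre against 42 bp for Trip13. Prc1, which bundles microtubules of the central spindle, was also singled out after its values were seen, at 0.94% (319 calls) in 11-month WT, 0.80% (125 calls) in Tet2KO and 11.6% (216 calls) in 2-month WT. By the deposited fraction Prc1 was at 1.97%, 0.48% and 6.81% in the same order, with age differences of -4.84 points by that measure and -10.6 by level.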
